A study of Mus musculus with 12 samples.

Results

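In mouse CD4+ T cells, 8 genes were picked for stimulation effects of opposite sign with and without cyclosporin A (CsA). Of 14398 genes tested, 4105 (28.5%) had fitted effects of opposite sign, called or not. The 8 genes are Frat2, Actn1, Rapgef1, Rnf126, Zfpm1, Eif2ak3, Resf1 and Fam102a, and they were picked from measured values. Those values were the level after stimulation against the unstimulated level in ethanol and the same contrast in CsA. Both stimulation effects, and the effect of CsA within either stimulation state or averaged over both, are therefore given for these genes as a description with no test. The share of each gene carried by its leading transcript was not used to pick them, and this was tested.

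The cells were total CD4+ T cells, purified untouched from spleens of C57BL/6 mice, and RNA was sequenced by the full-length SMART-seq method. All cells were held for 1 h in CsA or in its ethanol vehicle and then stimulated for 2 h with the protein kinase C activator PMA plus the calcium ionophore ionomycin (PI) or left unstimulated (US). The 4 groups, of 3 libraries each, were CsA_PI (1 µM CsA, then 10 nM PMA and 1 µM ionomycin), CsA_US (1 µM CsA alone), ethanol_PI (vehicle, then 10 nM PMA and 1 µM ionomycin) and ethanol_US (vehicle alone). The labels name no genetic change in any group. The labels do not say whether replicates came from separate animals, so the tests rest on variation among libraries that may be technical.

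PMA and ionomycin together bypass the T cell receptor. Calcium activates the phosphatase calcineurin, which lets NFAT factors enter the nucleus, where they often bind beside AP-1 at cytokine genes; CsA, bound to cyclophilin, blocks calcineurin but not the protein kinase C arm. None of the 8 genes encodes a cytokine. Frat2 encodes a GSK3-binding activator of Wnt signalling, Actn1 and Rapgef1 act in the actin cytoskeleton and integrin adhesion, Rnf126 in disposal of misfolded proteins, Zfpm1 and Resf1 in transcriptional control, and Eif2ak3 in the stress response of the endoplasmic reticulum.

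Libraries held 10523816 to 18468044 estimated counts, and where no read was counted the level could still be as high as 0.162 to 0.285 CPM, by counting error only. The 8 CD4 T cell markers were above 0 in every library, summing to 3477 to 5508 TPM. Summed B cell markers were highest in replicate 2 of each group: 993 against 50.8 and 67.5 TPM in CsA_PI, 860 against 112 and 156 TPM in CsA_US, 190 against 40.0 and 54.7 TPM in ethanol_PI, and 949 against 115 and 159 TPM in ethanol_US. Their part in the results was not tested. Other marker sums were 115 to 222 TPM for CD8 and NK cells, 19.2 to 202 TPM for myeloid cells and 36.1 to 292 TPM for erythroid cells and platelets. In a bulk library, fewer cells of a type and less RNA per cell cannot be told apart.

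The library labelled CsA_PI replicate 2 stood apart from its group. Il2, the T cell growth factor that stimulation induces, was at 25.4, 2.59 and 23.3 CPM in CsA_PI 1, 2 and 3, and at 2.42 CPM in ethanol_US 2. Across all tested genes its root mean square log2 difference was 0.45 from ethanol_US 2, the smallest of all 66 pairs of libraries, and 1.19 and 1.12 from CsA_PI 1 and 3. For 6 of the 8 genes its level lay within the range of the ethanol_US libraries, for 1 (Eif2ak3) within that of CsA_US, and for 0 within that of ethanol_PI. It was kept under its label. For the 8 genes, the effect of stimulation in CsA and the effects of CsA in stimulated cells and on average are given with and without it. Mean TPM, transcript shares and correlations are given with it.

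Promoter windows of 4 of the genes are shown, those of Frat2 and Actn1 because they alone of the 8 hold TGACG and those of Eif2ak3 and Fam102a because they hold the most CCAAT matches. Windows run from 250 bases before to 50 after the RefSeq start on GRCm38.p6, 5′ to 3′ on the gene's strand, and capitals mark GGAAA (the NFAT core), TGANTCA (AP-1), TGACG (a core bound by CREB and ATF factors) and CCAAT (the CCAAT box, bound by NF-Y), searched on both strands. Frat2 (chr19:41848083-41848382, minus strand) and Actn1 (chr12:80260314-80260613, minus strand) were higher with stimulation in ethanol; Eif2ak3 (chr6:70844265-70844564, plus strand) and Fam102a (chr2:32535109-32535408, plus strand) were lower.
Frat2: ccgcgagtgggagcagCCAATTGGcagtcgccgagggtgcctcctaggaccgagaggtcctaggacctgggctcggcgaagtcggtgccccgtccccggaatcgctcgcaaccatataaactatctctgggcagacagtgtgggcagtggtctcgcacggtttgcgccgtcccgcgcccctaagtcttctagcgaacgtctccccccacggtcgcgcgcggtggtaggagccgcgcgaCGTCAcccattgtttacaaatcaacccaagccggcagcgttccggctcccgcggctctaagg
Actn1: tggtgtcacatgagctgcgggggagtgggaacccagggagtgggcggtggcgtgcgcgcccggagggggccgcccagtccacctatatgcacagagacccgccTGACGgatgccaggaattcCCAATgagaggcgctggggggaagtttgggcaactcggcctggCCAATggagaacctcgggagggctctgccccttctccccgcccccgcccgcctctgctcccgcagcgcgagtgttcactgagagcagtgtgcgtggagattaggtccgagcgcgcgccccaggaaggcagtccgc
Eif2ak3: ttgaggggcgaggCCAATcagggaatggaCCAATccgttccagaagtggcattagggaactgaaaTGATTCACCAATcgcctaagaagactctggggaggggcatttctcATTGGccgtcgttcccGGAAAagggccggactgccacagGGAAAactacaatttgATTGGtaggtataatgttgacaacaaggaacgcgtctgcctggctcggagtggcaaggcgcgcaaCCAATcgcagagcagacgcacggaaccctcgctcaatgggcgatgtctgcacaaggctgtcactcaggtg
Fam102a: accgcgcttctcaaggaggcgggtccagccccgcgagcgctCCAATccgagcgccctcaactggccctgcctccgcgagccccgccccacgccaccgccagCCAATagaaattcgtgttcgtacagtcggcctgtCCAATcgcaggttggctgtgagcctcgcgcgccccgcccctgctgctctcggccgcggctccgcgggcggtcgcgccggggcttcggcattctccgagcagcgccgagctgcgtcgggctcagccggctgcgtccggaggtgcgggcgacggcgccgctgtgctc

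CCAAT was the most frequent match. Eif2ak3 held 6 matches, Fam102a 3, and Frat2, Actn1 and Resf1 2 each, the pair in Frat2 being the overlapping palindrome CCAATTGG; Rapgef1 held 1, and Rnf126 and Zfpm1 held 0. Of the 32851 promoter windows of the same length, 37.4% held at least 1 CCAAT, 11.7% at least 2, 3.37% at least 3 and 0.0791% at least 6. These windows were not limited to tested genes or matched for GC content. Their median GC was 52.7%, against 54.7% (Eif2ak3) to 73.7% (Zfpm1) in the windows of the 8 genes. GGAAA, present in 61.3% of all windows, occurred in Rnf126 (1 match), Rapgef1 (2) and Eif2ak3 (2). TGANTCA, present in 7.81% of windows, occurred in Eif2ak3, directly before a CCAAT, and TGACG, present in 20.8%, occurred in Frat2 and Actn1. A match describes letters in a window and is not a measured binding site.

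Frat2 had the widest range of the 8 genes. It encodes a protein that binds GSK3 and keeps it from marking β-catenin for destruction (ENSMUSG00000047604; mm10 chromosome 19, 41845972 to 41848132, minus strand; 1 transcript). Its level in TMM-scaled CPM, read counts scaled between libraries, was 1.98, 4.16 and 0.59 in CsA_PI and 6.40, 17.6 and 13.7 in CsA_US. It was 49.7, 28.4 and 50.4 CPM in ethanol_PI, against 6.94, 4.42 and 9.78 CPM in ethanol_US. Every CsA_PI library lay below every library of the other 3 groups, and every ethanol_PI library lay above all others. The stimulation effect was −2.44 ± 0.58 (log2 fold change ± SE) in CsA and 2.60 ± 0.56 in ethanol; without CsA_PI 2 the effect in CsA was −3.25 ± 0.60. Estimated counts ran from 6 to 417, so the lowest levels rest on few reads.

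**Figure D1:**
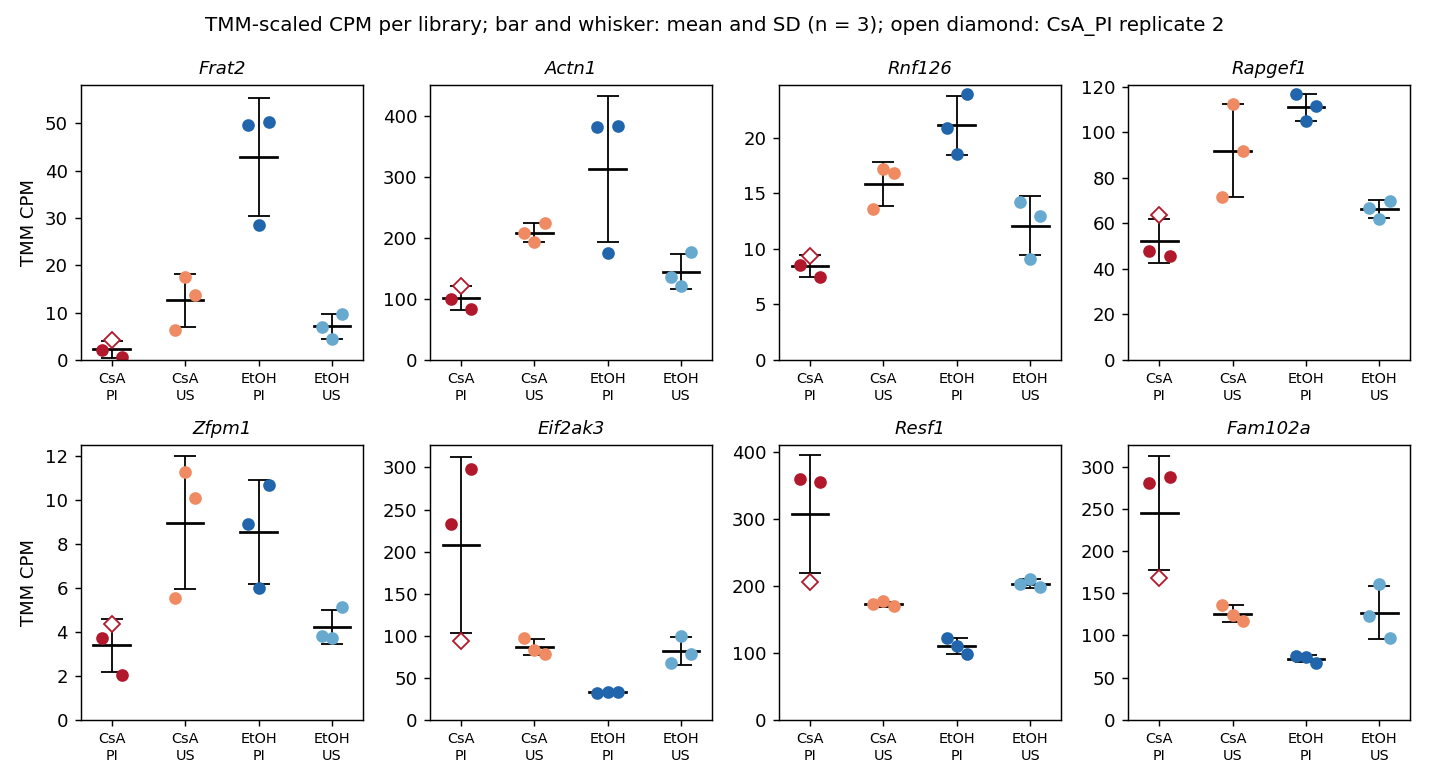
Levels of the 8 genes (TMM-scaled CPM, linear axis from 0) in each library of CsA_PI, CsA_US, ethanol_PI and ethanol_US, with bars at the mean and whiskers of 1 SD (n = 3). In the first 5 genes CsA_PI is the lowest group by its mean; in Eif2ak3, Resf1 and Fam102a it is the highest, and the open diamond of CsA_PI replicate 2 is the CsA_PI library nearest to the unstimulated groups.

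Actn1 and Rapgef1 act at the cell's adhesion machinery. Actn1 (ENSMUSG00000015143; chromosome 12, 80167547 to 80260371, minus strand) encodes α-actinin 1, which crosslinks actin filaments and ties them to integrins. Its level was 100, 121 and 83.0 CPM in CsA_PI, against 208, 193 and 224 CPM in CsA_US. In ethanol_PI it was 381, 175 and 383 CPM, against 136, 121 and 177 CPM in ethanol_US. The CsA groups did not overlap; the ethanol groups did, since ethanol_PI 2 lay just below ethanol_US 3. The effect was −1.04 ± 0.27 in CsA (−1.21 ± 0.30 without CsA_PI 2) and 1.11 ± 0.27 in ethanol.

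Rapgef1 (ENSMUSG00000039844; chromosome 2, 29619720 to 29740978, plus strand) encodes an exchange factor that loads the GTPase Rap1, a switch for integrin adhesion. It was at 47.7, 63.5 and 45.5 CPM in CsA_PI, against 71.6, 112 and 91.7 CPM in CsA_US. In ethanol_PI it was at 117, 105 and 112 CPM, against 66.8, 61.9 and 69.7 CPM in ethanol_US. Neither pair of groups overlapped. The effect was −0.81 ± 0.19 in CsA (−1.0 ± 0.17 without CsA_PI 2) and 0.75 ± 0.19 in ethanol.

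Rnf126 (ENSMUSG00000035890; chromosome 10, 79758515 to 79766952, minus strand) encodes a ubiquitin ligase that works with BAG6 on mislocalised hydrophobic proteins. Its level was 8.56, 9.35 and 7.45 CPM in CsA_PI, against 13.6, 17.1 and 16.8 CPM in CsA_US. In ethanol_PI it was 20.9, 18.5 and 23.9 CPM, against 14.2, 9.08 and 12.9 CPM in ethanol_US. Again neither pair overlapped. The effect was −0.90 ± 0.23 in CsA (−1.0 ± 0.25 without CsA_PI 2) and 0.80 ± 0.23 in ethanol. The gene overlaps Fgf22 on the other strand, which averaged 0.111 TPM.

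Zfpm1 (ENSMUSG00000049577; chromosome 8, 122282141 to 122337251, plus strand) encodes FOG1, a partner of GATA factors. It had the lowest mean TPM of the 8 genes over all 12 libraries, and was at 3.73, 4.37 and 2.06 CPM in CsA_PI and 5.56, 11.3 and 10.1 CPM in CsA_US. In ethanol_PI it was at 8.94, 6.01 and 10.7 CPM, against 3.84, 3.72 and 5.12 CPM in ethanol_US. The groups of each pair did not overlap. The effect was −1.40 ± 0.37 in CsA (−1.63 ± 0.41 without CsA_PI 2) and 1.01 ± 0.37 in ethanol. These values are uncertain because the same-strand gene model Gm20388 overlaps Zfpm1, and the assignment of shared reads between them was not tested. Gm20388 was at 7.07, 20.5 and 5.27 TPM in CsA_PI and 14.6, 20.4 and 21.0 TPM in CsA_US. It was at 3.64, 3.92 and 4.28 TPM in ethanol_PI, against 17.8, 23.3 and 23.1 TPM in ethanol_US, lower with stimulation where Zfpm1 was higher in TMM CPM. In TPM, Zfpm1 was at 3.05, 1.99 and 3.86 in ethanol_PI and 2.45, 2.31 and 2.43 in ethanol_US, and these groups overlapped. Over all 12 libraries Gm20388 averaged 13.7 TPM and Zfpm1 2.85 TPM.

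The other 3 genes showed the reverse order, lowest in ethanol_PI and, by their means, highest in CsA_PI. Eif2ak3 (ENSMUSG00000031668; chromosome 6, 70844515 to 70905245, plus strand) encodes PERK, the kinase that slows translation by phosphorylating eIF2α when unfolded proteins build up in the endoplasmic reticulum. It was at 233, 93.1 and 298 CPM in CsA_PI and 97.5, 82.8 and 78.7 CPM in CsA_US. It was at 32.1, 32.9 and 33.1 CPM in ethanol_PI, against 67.5, 99.3 and 78.7 CPM in ethanol_US. The 3 ethanol_PI libraries were almost level and below all others, while CsA_PI 2 fell inside the range of CsA_US, so the CsA groups overlapped. The effect was 1.27 ± 0.32 in CsA and −1.32 ± 0.32 in ethanol; without CsA_PI 2 the effect in CsA was 1.59 ± 0.18.

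Resf1 (ENSMUSG00000032712; chromosome 6, 149309414 to 149335663, plus strand) encodes a factor that, in mouse embryonic stem cells, helps to silence endogenous retroviruses. Its level was 361, 206 and 356 CPM in CsA_PI, against 173, 177 and 170 CPM in CsA_US. In ethanol_PI it was 123, 110 and 98.9 CPM, against 203, 210 and 198 CPM in ethanol_US. Neither pair of PI and US groups overlapped, and CsA_PI 2 lay within the range of ethanol_US. The effect was 0.83 ± 0.20 in CsA (1.03 ± 0.13 without CsA_PI 2) and −0.88 ± 0.20 in ethanol.

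Fam102a (ENSMUSG00000039157; chromosome 2, 32535332 to 32569756, plus strand) is the early oestrogen-induced gene 1, studied in mouse osteoclast formation. It was at 281, 167 and 288 CPM in CsA_PI, against 137, 124 and 117 CPM in CsA_US. In ethanol_PI it was at 75.7, 73.9 and 67.5 CPM, against 123, 161 and 97.4 CPM in ethanol_US. Neither pair overlapped, and CsA_PI 2 lay just above the highest ethanol_US library. The effect was 0.96 ± 0.23 in CsA (1.15 ± 0.18 without CsA_PI 2) and −0.81 ± 0.23 in ethanol.

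Counted over the 8 genes, PI and US libraries did not overlap in TMM CPM for 7 in CsA, where 23.0% of all tested genes did not, and for 7 in ethanol, where 55.4% did not. Since these contrasts chose the genes, the counts describe the choice. Among all genes, 17 (0.118%) were called at an adjusted p under 0.05 with opposite signs in CsA and in ethanol, and these hold all 8 genes. With the replicate number as a block there were 11 such genes, 1 of them among the 8, with library totals 0, and with limma on TPM 1, with none of the 8. The other 9 of the 17 were Gbp11, 5830468F06Rik, Rtp4, Irgm2, Zbp1, Tgfbr2, Zfp110, Zfp266 and Rnf128, named after their values were seen. Without CsA_PI 2 there were 125 such genes (0.830%), again with all 8. With 1 of the other 11 libraries left out the count was 12 without ethanol_US 2 (3 of the 8 among them) and 3 without ethanol_US 3 (1 of the 8). It was 1 without CsA_PI 3 (0 of the 8) and 0 otherwise. With no filter on low counts there were 14, with 5 of the 8. Just inside that limit lay Actn1 and Zfpm1, with the effects given above, and just outside lay Smim15 (0.64 in CsA, −0.54 in ethanol) and Zfp53 (0.91 in CsA, −1.38 in ethanol).

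**Figure D2:**
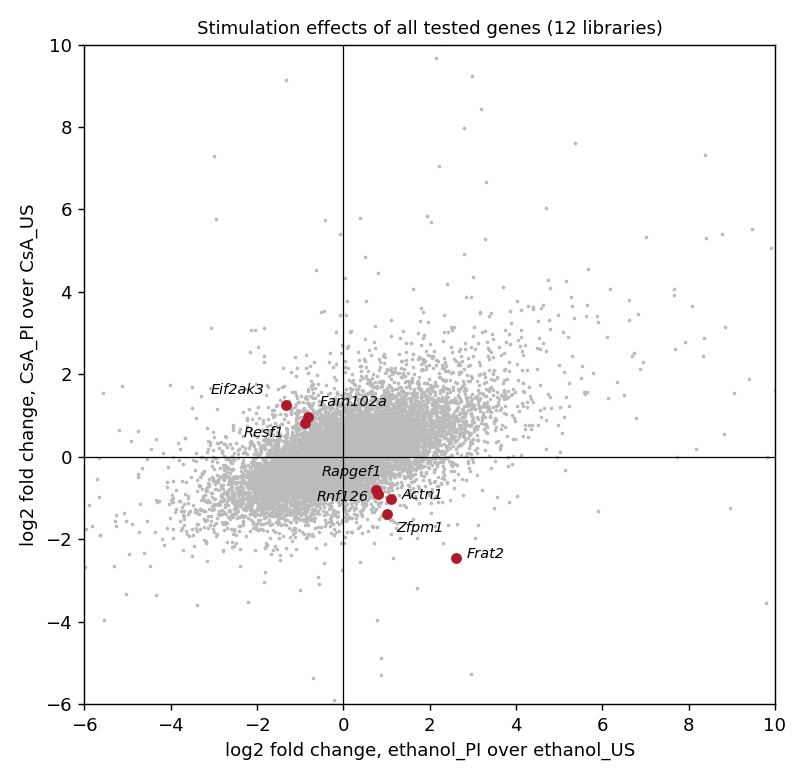
Fitted log2 fold change with stimulation in CsA (vertical) against that in ethanol (horizontal) for the tested genes, from all 12 libraries; 14364 genes are drawn and 34 lie beyond the axes. The 8 genes (red) occupy the lower right and upper left quadrants, with Frat2 farthest out at −2.44 in CsA and 2.60 in ethanol.

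The scale of measurement bears on the effects in ethanol. The TMM factors were 0.734 to 0.792 in ethanol_PI and 1.12 to 1.21 in ethanol_US, 0.871, 1.14 and 0.910 in CsA_PI and 1.13 to 1.17 in CsA_US. When library totals alone set the scale, the median of all genes was −0.63 for stimulation in ethanol, in place of −0.02 with TMM, and −0.21 for stimulation in CsA, in place of 0.03. The ethanol effects were then 0.49 for Actn1, 0.40 for Zfpm1, 0.19 for Rnf126 and 0.13 for Rapgef1, all positive and above that median. In deposited TPM, which corrects for length and total but not for this shift, ethanol_PI and ethanol_US overlapped for these 4 genes. Rapgef1 was at 20.8, 24.0 and 23.0 TPM in ethanol_PI, against 21.6, 19.8 and 23.7 TPM in ethanol_US. Frat2, Eif2ak3, Resf1 and Fam102a did not overlap in TPM either, 4 of 8 beside 58.6% of all genes. In CsA, all 8 genes had no overlap in TPM, beside 20.9% of all genes. Every stimulation effect kept its sign in each of 18 alternative settings for each of the 8 genes. In the setting where each was smallest, however, the effect in ethanol was 0.0551 for Rapgef1, 0.186 for Rnf126 and 0.194 for Zfpm1. A kept sign therefore does not show that these rises hold on every scale.

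**Figure D3:**
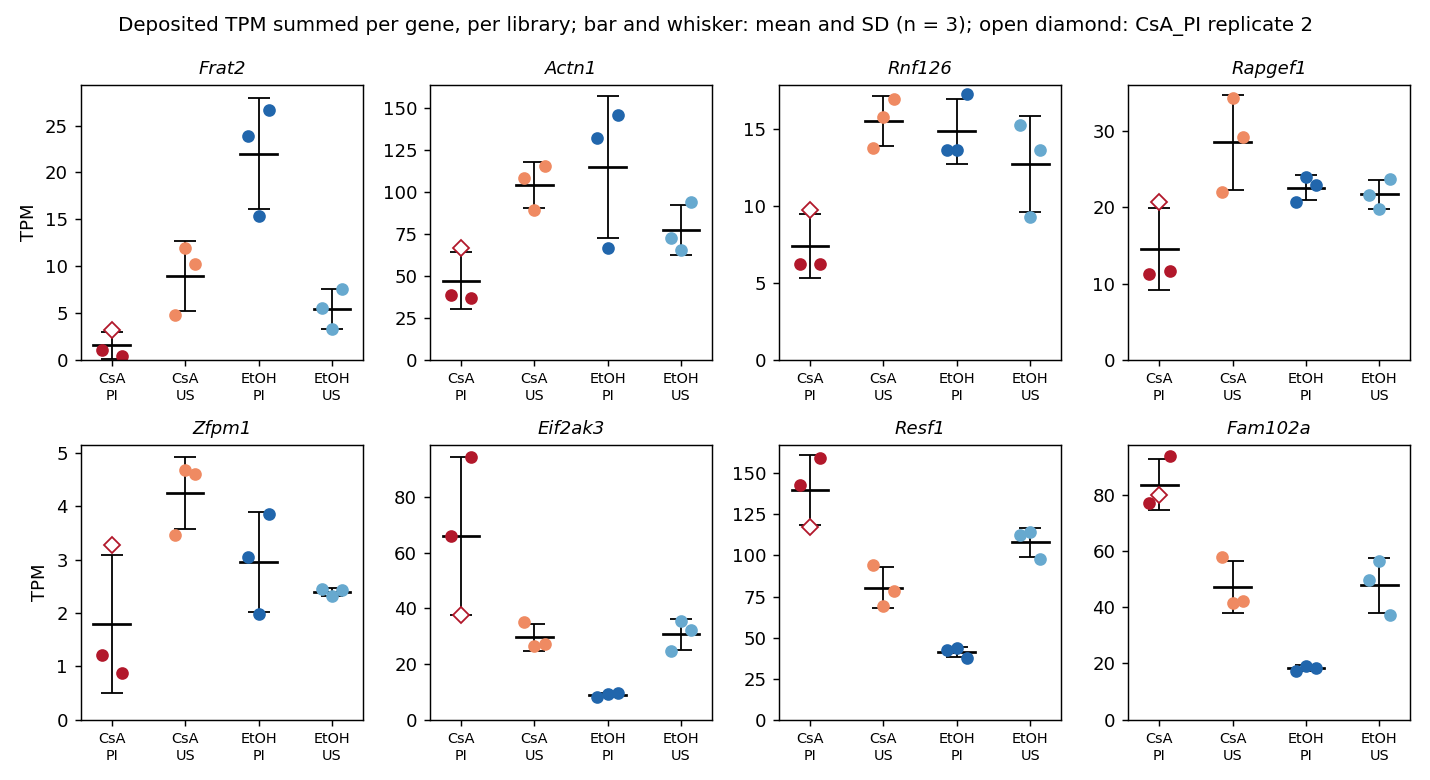
Deposited TPM summed per gene (linear axis from 0) in each library of CsA_PI, CsA_US, ethanol_PI and ethanol_US, with the mean and 1 SD (n = 3). Rapgef1, Rnf126, Zfpm1 and Actn1 overlap between ethanol_PI and ethanol_US, while all 8 genes separate CsA_PI from CsA_US.

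By TPM, which allows levels of different genes to be set side by side, the mean over 12 libraries was 92.4 for Resf1, 85.8 for Actn1, 49.2 for Fam102a, 33.9 for Eif2ak3, 21.8 for Rapgef1, 12.6 for Rnf126, 9.48 for Frat2 and 2.85 for Zfpm1. The ranges over libraries of genes next to each other in this order overlapped. Resf1 ran from 37.6 to 159 TPM and Zfpm1 from 0.880 to 4.68 TPM.

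CsA was also set against ethanol averaged over stimulated and unstimulated cells. This average comes from the same 4 groups as the choice, and on the log2 scale it equals the interaction (the stimulation effect in CsA minus that in ethanol) divided by 2, plus the effect of CsA in unstimulated cells. For genes chosen for opposite stimulation effects, its sign and size therefore follow in large part from the choice where CsA did little in unstimulated cells. It is given as a description with no test, and is no independent support. Eif2ak3 was at 1.37 ± 0.23 (1.57 without CsA_PI 2), Fam102a at 0.87 ± 0.16 (1.00) and Resf1 at 0.62 ± 0.14 (0.75). Frat2 was at −1.69 ± 0.39 (−2.07 without CsA_PI 2).

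The other 4 genes were nearer to 0. Actn1 was at −0.55 ± 0.19 (−0.60 without CsA_PI 2), Rnf126 at −0.46 ± 0.16 (−0.48), Rapgef1 at −0.31 ± 0.13 (−0.37) and Zfpm1 at −0.12 ± 0.26 (−0.21).

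**Figure D4:**
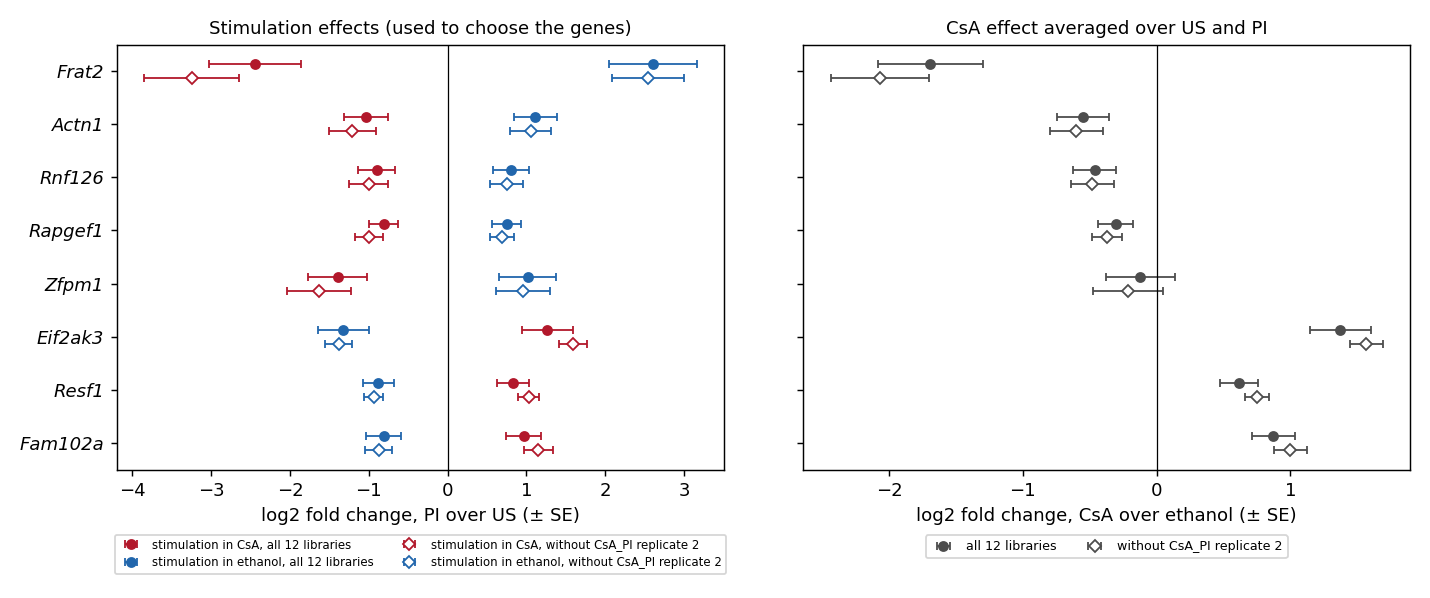
Left, log2 fold change of PI over US (± SE) in CsA (red) and in ethanol (blue) for the 8 genes; right, CsA over ethanol averaged over both states. Filled circles use all 12 libraries and open diamonds leave out CsA_PI replicate 2; on the right, Eif2ak3, Resf1 and Fam102a lie at 0.62 to 1.37 with all 12 libraries and Frat2 at −1.69.

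The average joined unequal parts. In stimulated cells, CsA_PI minus ethanol_PI was −4.22 ± 0.61 for Frat2, −1.62 for Actn1, −1.32 for Rnf126, −1.09 for Rapgef1 and −1.33 for Zfpm1, against 2.67 ± 0.34 for Eif2ak3, 1.47 for Resf1 and 1.76 for Fam102a. Without CsA_PI 2 these were −4.96 for Frat2, −1.73 for Actn1, −1.35 for Rnf126, −1.21 for Rapgef1, −1.51 for Zfpm1, 3.05 for Eif2ak3, 1.73 for Resf1 and 2.01 for Fam102a, each farther from 0. In unstimulated cells, CsA_US minus ethanol_US was 0.83 for Frat2, 0.52 for Actn1, 0.39 for Rnf126, 0.47 for Rapgef1 and 1.09 for Zfpm1. It was 0.08 for Eif2ak3, −0.24 for Resf1 and −0.01 for Fam102a. These share libraries with the contrasts that chose the genes and are descriptions. CsA_PI and ethanol_PI did not overlap in TMM CPM for all 8 genes, beside 37.9% of all genes, and CsA_US and ethanol_US did not for 4 of 8, beside 9.92%. In TPM the counts were 5 of 8 beside 37.4%, and 2 of 8 beside 10.5%. Over all genes, 23.0% were called for CsA in stimulated cells and 0.00695% (1 gene, Gbp11) in unstimulated cells.

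Transcript makeup, which the choice did not use, was tested for the 6 genes with more than 1 transcript. None of the 12 tests of the leading transcript's share of TPM passed after adjustment, nor did any with a library left out, and 3 had an unadjusted exact permutation p under 0.05 (two-sided, smallest possible 0.00216). The leading transcript carried 75.2 ± 2.32% of Actn1 in PI and 66.4 ± 5.81% in US libraries (SD, n = 6 each; exact permutation p = 0.00649, adjusted 0.0519). In Eif2ak3 the leading transcript, its longest coding form, carried 79.1 ± 4.58% in PI and 91.5 ± 5.63% in US libraries (exact permutation p = 0.00866, adjusted 0.0519). This depended on the measure: PI minus US was −12.4 percentage points by share of TPM. By share of estimated counts it was −4.78 (exact permutation p = 0.0584, adjusted 0.140). In Rapgef1 the leading transcript carried 44.0 ± 6.10% of TPM in PI and 62.7 ± 15.1% in US libraries (exact permutation p = 0.0281, adjusted 0.113). Between CsA and ethanol libraries the smallest adjusted p was 0.177, for Fam102a, at 83.3 ± 8.79% in CsA and 91.7 ± 5.13% in ethanol libraries (exact permutation, n = 6 each).

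**Figure D5:**
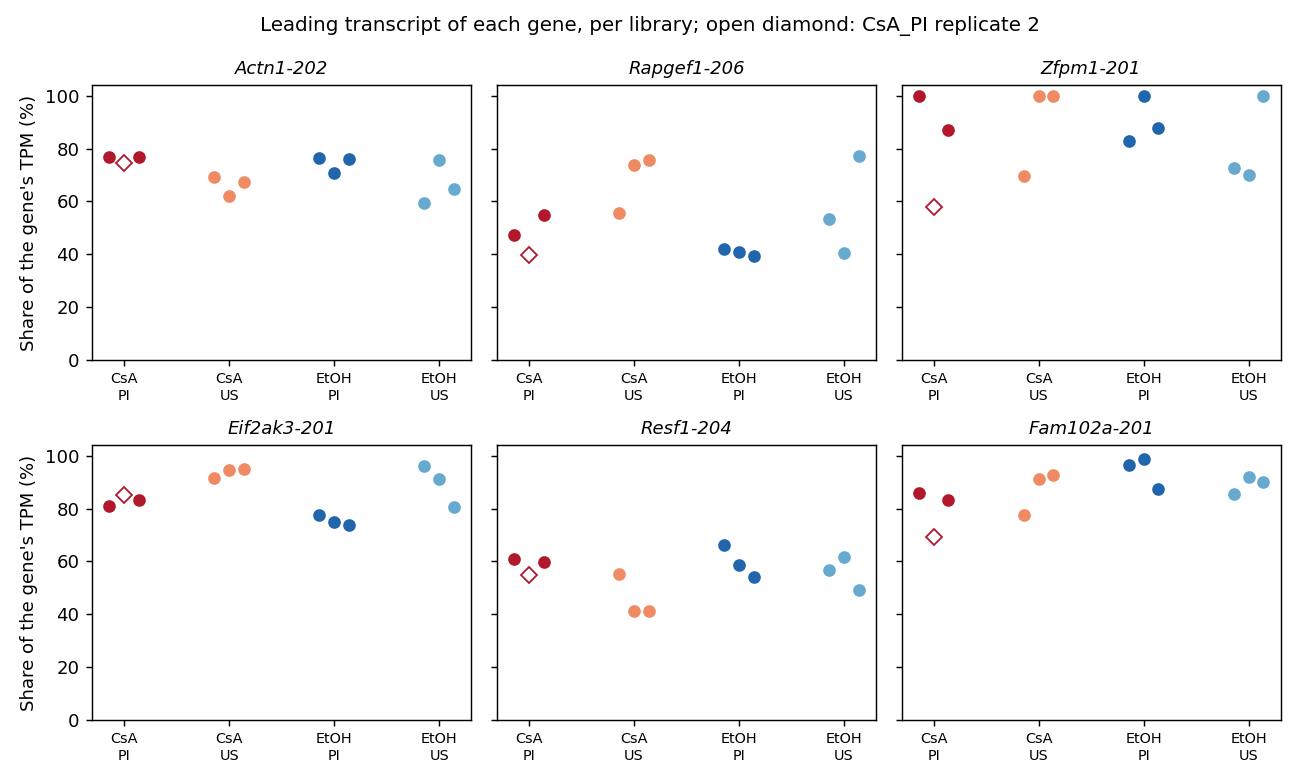
Share of each gene's TPM carried by its leading transcript (percent, axis from 0) in each library of CsA_PI, CsA_US, ethanol_PI and ethanol_US, for the 6 genes with more than 1 transcript. The Eif2ak3 transcript lies at 79.1% on average in PI and 91.5% in US libraries, and that of Actn1 at 75.2% in PI and 66.4% in US libraries.

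Likeness across libraries is a description, since genes chosen for opposite stimulation effects share the group differences that set it. The 8 genes form a set lower (Frat2, Actn1, Rnf126, Rapgef1 and Zfpm1) and a set higher (Eif2ak3, Resf1 and Fam102a) with stimulation in CsA. By Pearson correlation of log2 TMM CPM over the 12 libraries, which share the group differences, Frat2 was nearest to Dpagt1 (0.959), Rnf126 and Rapgef1 (0.957 each), and Rnf126 also to Timm13 (0.948). Actn1 was nearest to Btbd6 (0.942) and Qdpr (0.928), Rapgef1 to Ube2o (0.952) after Frat2, and Zfpm1 to Trim28 (0.939), Prkcb (0.932) and Nadk2 (0.926). Eif2ak3 was nearest to Cnn2 (0.979), Psmb9 (0.975) and the TGF-β receptor Tgfbr2 (0.972), Resf1 to Psmb9 (0.979) and Dram2 (0.966), and Fam102a to Dram2 (0.976) and Tgfbr2 (0.971). Within groups, deviations from the group mean correlated at 0.93 for Frat2 with Zfpm1, 0.87 for Eif2ak3 with Resf1, 0.84 for Eif2ak3 with Fam102a and −0.80 for Frat2 with Eif2ak3, over 12 libraries that include CsA_PI 2. The weakest of each sign were 0.36 for Actn1 with Rapgef1 and −0.33 for Actn1 with Resf1. How far CsA_PI 2 alone sets these correlations was not tested.

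Companion genes of each role were counted from lists that leave out the 8 genes themselves. Unless stated, values of named companion genes use all 12 libraries, so their effects and means in CsA include CsA_PI 2. The SD in CsA_PI (n = 3) was 1853 CPM around 2900 CPM for Lcp1 and 38.6 CPM around 406 CPM for Actn4. Fold changes below are log2 values with edgeR adjusted p, and over all genes stimulation in CsA called 5.28% (3.90% higher, 1.38% lower; 28.7% in all without CsA_PI 2) and stimulation in ethanol 39.8% (20.1% higher, 19.7% lower). The averaged effect of CsA called 11.9% (4.05% higher, 7.86% lower, and 15.4% in all without CsA_PI 2). CsA in unstimulated cells called 1 gene (0.00695%), so a gene raised or lowered on average need not have changed in both states. For stimulation in CsA, each of the 7 lists had 0 to 2 genes higher and 0 to 1 lower with all 12 libraries, and 0 to 8 higher and 2 to 5 lower without CsA_PI 2. Of 17 tested Wnt and GSK3 genes, stimulation in ethanol raised 3 and lowered 4, with a median of 0.01 beside −0.02 over all genes. Axin2, a feedback inhibitor of Wnt, rose in ethanol (1.36 ± 0.27, adjusted p = 0.00196) and was at −0.35 in CsA. The transcription factors Tcf7 and Lef1, partners of β-catenin, fell in ethanol (−2.76 ± 0.25, adjusted p = 9.63e-06, and −1.73 ± 0.24, adjusted p = 0.000168). Averaged over both states, CsA changed 1 of the 17, raising Tcf7 (1.40 ± 0.17, adjusted p = 0.000303). Tcf7 averaged 676 CPM in CsA_PI against 108 CPM in ethanol_PI, and 815 CPM in CsA_US against 730 CPM in ethanol_US. Frat1, the relative of Frat2, was listed at 0 in all 12 libraries.

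Of 20 genes of actin crosslinking and adhesion, stimulation in ethanol raised 6 and lowered 3 (median 0.27). Lcp1, the leukocyte actin bundler L-plastin, rose in CsA (2.06 ± 0.44, adjusted p = 0.0395) and in ethanol (2.69 ± 0.45, adjusted p = 0.000635), and so had 1 sign in both, unlike Actn1. The α-actinin Actn4 was at 0.29 in CsA and 0.37 in ethanol and passed in neither with all 12 libraries. CsA, averaged, raised 4 of the 20, among them the integrin chain Itga4 (0.52 ± 0.15, adjusted p = 0.0384); without CsA_PI 2 it raised 7 and lowered 1.

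Of 20 Rap1 genes, stimulation in ethanol raised 4 and lowered 5 (median −0.28). Rap1a, the GTPase itself, rose (0.96 ± 0.18, adjusted p = 0.00128), and Rasgrp2, a Rap1 exchange factor, fell in CsA (−0.89 ± 0.22, adjusted p = 0.0431) and in ethanol (−2.02 ± 0.22, adjusted p = 2.99e-05). The related exchange factor Rapgef6 rose in ethanol (0.57 ± 0.20, adjusted p = 0.0386), and Rapgef2 was at 0.83 (adjusted p = 0.0539). CsA, averaged, raised 2 and lowered 1.

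Of 15 genes of BAG6 quality control, stimulation in ethanol raised 4 and lowered 1 (median 0.23). The shuttle factor Ubqln4 rose in ethanol (1.25 ± 0.14, edgeR adjusted p = 2.52e-05) and was the 1 gene that CsA, averaged, lowered (−0.53 ± 0.09, edgeR adjusted p = 0.00328). Ubqln4 averaged 90.1 CPM in CsA_PI against 203 CPM in ethanol_PI, but 91.8 CPM in CsA_US against 85.2 CPM in ethanol_US. Rnf115, the relative of Rnf126, was at −0.15 in CsA and 0.17 in ethanol and passed in neither with all 12 libraries. Of 19 genes of GATA cofactors and the NuRD complex, stimulation in ethanol raised 7 and lowered 4 (median 0.57), and CsA, averaged, lowered 3. Mbd3, a NuRD subunit, rose in ethanol (2.09 ± 0.28, adjusted p = 0.000121) and was at −0.32 in CsA. Zfpm2, the relative of Zfpm1, was listed at 0 in all 12 libraries.

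Of 25 genes of the unfolded protein response, the pathway of Eif2ak3, stimulation in ethanol raised 9 and lowered 3 (median 0.43). CsA, averaged, raised 1 and lowered 4. Hspa5, the chaperone BiP that holds PERK inactive, rose in ethanol (2.12 ± 0.28, adjusted p = 0.000109). It fell with CsA averaged over both states (−0.83 ± 0.19, adjusted p = 0.0145). Ppp1r15a, which encodes GADD34 and reverses eIF2α phosphorylation, rose in ethanol (1.93 ± 0.24, adjusted p = 7.02e-05). It also fell with CsA averaged over both states (−0.95 ± 0.17, adjusted p = 0.00297). Both had signs opposite to those of Eif2ak3 in these comparisons. With stimulation in CsA they did not: by their means both were higher, as Eif2ak3 was. Hspa5 averaged 1498 CPM in CsA_PI against 1107 CPM in CsA_US, and Ppp1r15a 348 against 321 CPM, with CsA_PI 2 included. In unstimulated cells Hspa5 averaged 1107 CPM in CsA_US and 1096 CPM in ethanol_US, and Ppp1r15a 321 and 330 CPM. Trib3, among the 3 lowered in ethanol, averaged 3.18 CPM in ethanol_PI and 13.2 CPM in ethanol_US, the direction of Eif2ak3. It was also lower with stimulation in CsA (7.15 against 18.1 CPM), unlike Eif2ak3. Of the other eIF2α kinases, Eif2ak2 fell in ethanol (−0.84 ± 0.27, adjusted p = 0.0268), and Eif2ak1 and Eif2ak4 were at 0.10 and 0.08 and did not pass.

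Of 18 genes of retroelement silencing, stimulation in ethanol raised 5 and lowered 6 (median −0.01). Suv39h2, a histone H3K9 methyltransferase, rose in CsA (1.14 ± 0.29, adjusted p = 0.0464) and in ethanol (3.64 ± 0.31, adjusted p = 6.18e-06) and fell with CsA averaged over both states (−1.19 ± 0.21, adjusted p = 0.00263). In unstimulated cells Suv39h2 averaged 4.12 CPM in CsA_US and 3.97 CPM in ethanol_US. CsA, averaged, lowered 2 of the 18. Among the 6 genes lowered in ethanol, Cbx3 averaged 47.6 CPM in ethanol_PI and 206 CPM in ethanol_US. Ehmt2 averaged 15.1 and 56.2 CPM, and this was the direction of Resf1. By their means they were also lower with stimulation in CsA (82.7 against 173 CPM and 30.1 against 71.9 CPM), unlike Resf1. Fam102b, the relative of Fam102a, fell in ethanol (−1.27 ± 0.41, adjusted p = 0.0266) and was at −1.27 ± 0.41 in CsA (adjusted p = 0.0803), so its fitted effects had 1 sign. Without CsA_PI 2 the averaged CsA counts of the lists other than actin and adhesion changed by at most 1 gene in either direction.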

How the data were processed

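Cutadapt, kallisto and the build mm10 are named in the submitters' processing notes; versions and transcript annotation are not given in the sources used here. Each deposited table gives an estimated count per transcript, unscaled for depth, and, per the file headers, TPM, scaled for length and depth within a library. By identifier, 108214 of 109617 transcripts matched GENCODE vM21 (GRCm38/mm10), and 92.5% of these had the annotated length. Unmatched transcripts carried 0.494% to 0.629% of counts and were left out.

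Counts were summed per gene, rounded and tested with edgeR 4.0.16 under R 4.3.3 (TMM, filterByExpr by group with minimum count 10 and total 15, robust quasi-likelihood fits of all 4 groups together, Benjamini-Hochberg over all genes, call at an adjusted p under 0.05). The SE is the absolute log2 fold change over the square root of F. The averaged effect of CsA was planned as a test of the 8 genes. It is given for them as a description, because it uses the same libraries as the contrasts that chose them. The companion genes were tested on it. Leading-transcript shares were tested by exact permutation of 6 against 6 libraries, adjusted over 12 tests. The fits were tested on simulated data. The 8 genes and the companion lists were chosen with earlier results of these data known.

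Alternatives were RLE scaling, library totals, no filter, DESeq2 1.42.0, limma 3.58.1 on log2(TPM + 1), the replicate number as a block, and each library left out in turn. Named genes were the 8 and their relatives, the 3 genes best correlated with each (mean of at least 10 CPM), and up to 2 risers and 2 fallers in ethanol per list, of which those described are a part. Across genes, departures from the group mean of libraries with 1 number correlated at 0.107 or more between CsA and ethanol libraries of 1 state and at 0.143 or more between ethanol_PI and ethanol_US, but at 0.033 for 1 pair of CsA_PI and CsA_US; the labels do not say what a number shares. Promoter windows are from RefSeq (GRCm38.p6), and all 8 genes matched one. No protein sequences were used here.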

Additional observations from a re-analysis of the deposited data

Results flagged for a closer look

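Over the whole companion lists, 19 of 134 tested genes had stimulation effects in CsA and in ethanol that differed by a test of the difference itself (edgeR interaction, adjusted p under 0.05), beside 9.72% of all tested genes. The 12 given here are those named for their effect in ethanol or as relatives of the 8 genes; the ethanol effect is one part of the difference, so nothing is read from their number. All values below are the log2 effect in CsA minus that in ethanol, from all 12 libraries. The difference was negative for Suv39h2 (−2.50, adjusted p = 0.00279), Mbd3 (−2.41, adjusted p = 0.00263), Ppp1r15a (−1.81, adjusted p = 0.00517), Axin2 (−1.71, adjusted p = 0.0153), Hspa5 (−1.69, adjusted p = 0.0163) and Ubqln4 (−1.28, adjusted p = 0.00165), the same sign as for Frat2 and Actn1. It was positive for Tcf7 (2.49, adjusted p = 0.000999), Gata1 (1.72, adjusted p = 0.0214), Itga4 (1.43, adjusted p = 0.0096), Stk4 (1.42, adjusted p = 0.0367), Rasgrp2 (1.13, adjusted p = 0.0366) and Wasf2 (0.85, adjusted p = 0.0131), the same sign as for Eif2ak3. In Axin2, Mbd3, Ubqln4 and Gata1 the 2 fitted effects also had opposite signs, of which only those in ethanol passed the test. Without CsA_PI 2, all 12 differences still passed and Ubqln4 was at 0.01 in CsA. Gata1 was low, at a mean of 10.2 CPM in CsA_PI, 6.37 CPM in CsA_US, 4.85 CPM in ethanol_PI and 9.93 CPM in ethanol_US. Which cells it came from was not tested.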

How the results depend on the processing

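The averaged effect of CsA kept its direction for 7 of the 8 genes under all 18 alternatives. Zfpm1 turned to 0.0521 with library totals and 0.0226 with limma on TPM, and ran from −0.2191 to 0.0085 with 1 library left out (0.0085 without CsA_US 1, 0.0073 without CsA_PI 3).

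Counts over all genes moved more. For stimulation in CsA, 760 genes were called, against 5 with library totals, 30 with limma on TPM, 441 with the replicate block, 2022 with DESeq2, and 0 to 4321 with 1 library left out, where 4321 came without CsA_PI 2, 639 without ethanol_US 2, 268 without ethanol_US 3 and at most 6 without any other library. The 17 genes called in opposite directions became 0 with library totals, 1 with limma on TPM, 60 with DESeq2 and 0 to 125 with 1 library left out, and 11 with the replicate block, of which 1 was among the 8; under DESeq2 all 8 were. For CsA in unstimulated cells 1 gene was called, against 20 with DESeq2, 0 with limma on TPM and 0 to 7 with 1 library left out. With 1 library left out, the averaged CsA effect gave 1020 (without CsA_US 3) to 2324 calls beside 1714, stimulation in ethanol 4511 to 6581 beside 5728, CsA in stimulated cells 2233 to 3393 beside 3318, and transcript shares 0. The causes were not tested. Low counts limit Frat2 and Zfpm1 most.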
